A study of Mus musculus with 196 samples.

Results

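Glycolysis genes are described here across mouse primordial germ cell-like cells (PGCLCs) in which the transcription factor gene Zglp1 was induced or deleted. The 32 genes were listed by name: 2 glucose transporters, 2 hexokinases, the enzymes of the upper and lower pathway with their isozymes, 2 lactate dehydrogenases, 2 lactate transporters, 4 PFKFB regulators of phosphofructokinase and 4 pyruvate dehydrogenase kinases. All 32 were found by symbol among the 25706 endogenous genes of the deposited table, Pkm under its older symbol Pkm2. The study made RNA-seq libraries from the 3' ends of transcripts of PGCLCs cultured on feeder cells, and of germ cells of 3 embryonic stages with 1 library each. It asked, by its title, whether ZGLP1 determines the oogenic fate. Apart from the embryos, 191 libraries fell into 98 groups, mostly of 2 libraries.

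All cultured cells came from embryonic stem cells that carry Prdm1-mVenus and Dppa3-ECFP reporters and were sorted by those reporters. Line OE_A2 carries a Zglp1 coding sequence behind a tetO promoter with IRES-mCherry, and an rtTA transgene; it is 1 clone. It was cultured for 4, 5, 7 or 9 days with doxycycline (Dox), with Dox and retinoic acid (DoxRA), with Dox in a medium labelled SerumMinusWIN (SerumMinusWINDox), with Dox and BMS (BMSDox), or in the matching control, SerumMinusWIN and BMS media without Dox. BMS and WIN are given here by their label names. Line OESko_A11, also 1 clone, carries the same transgenes in cells without Stra8 and was given DoxRA or control medium. The Zglp1-/- clones Zko_E5 and Zko_G10 were given BMP2 with RA (B2RA), BMP2 or control medium, and the Stra8-/- clones Sko_B6 and Sko_F6 were given B2RA or control medium. The parental line H18 was given B2RA or BMP2 up to day 9, and its RA and control arms end at day 4. E9.5 primordial germ cells came from a Dppa3-EGFP cross, and E14.5 and E15.5 oocytes from Ddx4-RFP crosses. Dox was given to lines with the transgene alone, so effects of the drug and of the transgene cannot be told apart. The labels do not say whether 2 libraries of a group are separate cultures, so p-values measure the spread between libraries, which may be technical.

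Glycolysis takes glucose through hexokinase, phosphofructokinase, aldolase and the enzymes that follow to pyruvate. Lactate dehydrogenase then reduces pyruvate to lactate, which leaves the cell through monocarboxylate transporters. The pyruvate dehydrogenase kinases inhibit pyruvate dehydrogenase, which acts on pyruvate in the mitochondrion. Many of these steps have isozymes with different tissue distributions, and early mouse germ cells are known for a shift in the balance of glycolysis and oxidative phosphorylation as they leave the pluripotent state.

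The isozyme pairs on which the results below turn are Ldha with Ldhb and Pdk1 with Pdk3, whose start regions are shown because the members of each pair parted. On mm10, Ldha lies on chromosome 7 from 46841475 to 46855627 on the plus strand, and Ldhb on chromosome 6 from 142490249 to 142507957 on the minus strand. Pdk1 lies on chromosome 2 from 71873224 to 71903858 on the plus strand, and Pdk3 on chromosome X from 93764607 to 93832201 on the minus strand. Each window runs from 250 bases before to 50 after a start site and is written 5' to 3' from RefSeq's GRCm38.p6 annotation. The windows are chr7:46845554-46845853 (plus strand, 1 of 2 windows listed for Ldha), chr6:142507908-142508207 (minus strand), chr2:71872974-71873273 (plus strand, 1 of 2 windows listed for Pdk1) and chrX:93832101-93832400 (minus strand).
Ldha: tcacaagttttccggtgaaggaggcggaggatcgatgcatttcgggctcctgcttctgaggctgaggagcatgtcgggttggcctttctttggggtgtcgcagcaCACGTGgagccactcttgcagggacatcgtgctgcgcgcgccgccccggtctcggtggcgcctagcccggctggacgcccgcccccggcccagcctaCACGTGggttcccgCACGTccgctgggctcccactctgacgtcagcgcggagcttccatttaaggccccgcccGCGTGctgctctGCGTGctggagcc
Ldhb: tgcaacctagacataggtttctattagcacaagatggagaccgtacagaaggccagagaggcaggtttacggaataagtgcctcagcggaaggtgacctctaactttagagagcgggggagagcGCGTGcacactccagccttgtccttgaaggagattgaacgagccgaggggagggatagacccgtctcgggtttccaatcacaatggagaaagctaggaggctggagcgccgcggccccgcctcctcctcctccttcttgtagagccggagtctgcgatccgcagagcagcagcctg
Pdk1: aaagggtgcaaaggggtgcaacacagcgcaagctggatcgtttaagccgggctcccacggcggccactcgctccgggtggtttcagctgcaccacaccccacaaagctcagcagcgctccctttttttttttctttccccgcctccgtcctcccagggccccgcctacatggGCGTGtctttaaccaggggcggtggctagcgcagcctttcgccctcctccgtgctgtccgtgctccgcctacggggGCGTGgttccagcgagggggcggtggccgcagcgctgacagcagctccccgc
Pdk3: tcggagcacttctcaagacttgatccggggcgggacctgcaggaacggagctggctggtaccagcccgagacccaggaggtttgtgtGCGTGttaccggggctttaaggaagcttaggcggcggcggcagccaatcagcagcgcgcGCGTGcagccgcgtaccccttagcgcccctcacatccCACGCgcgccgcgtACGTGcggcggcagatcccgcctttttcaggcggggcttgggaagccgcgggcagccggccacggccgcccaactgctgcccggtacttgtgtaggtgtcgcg
Capitals mark ACGTG and GCGTG, the core of the hypoxia response element, and CACGTG, the E-box that MYC binds, on either strand; each CACGTG holds ACGTG on both strands. The Ldha window held 7 matches of the core letters and 2 of CACGTG, against 1 and 0 in the Ldhb window. The Pdk1 window held 2 matches of the core letters, and the Pdk3 window 4. A window was found for 31 of the 32 genes; the exception was Slc2a3. The windows shown and counted are of the most upstream start listed for each gene. Of the 31, 22 held the core letters on either strand, 4 held CACGTG and 17 held GATA, the letters bound by GATA-type zinc fingers. Over 32851 windows of the same length the shares were 43.8% for the core letters, 7.15% for CACGTG and 57.9% for GATA. Among the 18 genes with a window that fell with Dox at day 9, 13 held the core letters, 1 held CACGTG and 8 held GATA. Among the 7 tested genes that did not fall, 6 held the core letters, 2 held CACGTG and 5 held GATA. With all listed windows of a gene counted, 26 of the 31 held the core letters in at least 1, 6 held CACGTG and 20 held GATA, where the shares over 27025 genes were 46.7%, 8.09% and 61.5%. The counts describe letters in these windows and no binding.

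The deposited values are reads scaled to the library's total over endogenous genes (RPM), and a library holds 877040 to 5196593 reads, so that 1 read is worth 0.192 to 1.14 RPM. Levels are counts of 3' ends and are not set against gene length, so they are compared between libraries and not between genes. A gene was tested where at least 2 libraries of a comparison reached 10 RPM, and was called where limma's adjusted p was under 0.05 and the log2 difference at least 1. Differences are tested minus control on the log2(RPM + 1) scale, given with the standard error (SE), and the scale understates changes of low genes. Pgam2, Eno2, Pklr, Pdk2 and Pdk4 were never tested, and their highest levels in any cultured library were 15.2, 8.35, 0.688, 11.4 and 10.7 RPM. The transgene's mCherry tag at day 9 stood at 1659 and 925 RPM with Dox, 4609 and 1720 RPM with DoxRA, 8009 and 4566 RPM with SerumMinusWINDox and 11751 and 8929 RPM with BMSDox. Its controls held 406 and 162 RPM in control medium, 233 and 234 RPM in SerumMinusWIN and 43.5 and 95.9 RPM in BMS. At day 9 with B2RA the Zglp1 tag stood at 32.7, 20.3, 16.3 and 25.6 RPM in the Zko clones and at 48.8 and 53.6 RPM in H18, and the Stra8 tag at 423, 688, 52.7 and 67.0 RPM in the Sko clones. A 3' tag can lie outside the deleted part, so these tags check nothing about the deletions. In bulk libraries, fewer cells of a type and less RNA per cell cannot be told apart.

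Most of the glycolysis genes were lower at day 9 in cells with the transgene induced. With Dox in OE_A2, 19 of the 26 tested members were called lower and 1 higher, where 9.38% of all genes tested were called lower and 13.4% higher. With DoxRA, 20 of 26 were lower and 1 higher, where 22.5% of all genes were lower and 25.6% higher. The members' median log2 difference was -2.63 with Dox and -3.63 with DoxRA, while the median over all tested genes was 0.06 and 0.11. With Aldoc, which had no read with DoxRA, set at its bound of 3 reads per library, the DoxRA median was again -3.63. Of the members tested with Dox, Hk1, Hk2, Pfkl, Aldoc, Ldha and Slc16a3 passed the filter through the control libraries alone and Pfkfb2 through the Dox libraries alone. With DoxRA, Hk1, Hk2, Pfkl, Aldoc, Tpi1, Eno1, Ldha, Slc16a3, Pfkfb1 and Pfkfb3 passed through the control libraries alone and Pfkfb2 through the DoxRA libraries alone. Dox and DoxRA share their control libraries. Summed over the 32 genes, the libraries held 2479 and 2460 RPM with Dox, 1403 and 1459 RPM with DoxRA, and 16390 and 15760 RPM in control medium, so that the groups lay far apart.

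Among the glucose transporters, Slc2a1, which takes up glucose in most cell types, stood at 51.2 and 41.3 RPM with Dox, 43.3 and 23.1 RPM with DoxRA and 405 and 401 RPM in control medium. Slc2a3, a transporter of high affinity, stood at 88.1 and 100.4 RPM with Dox, 14.4 and 31.9 RPM with DoxRA and 867 and 950 RPM in control medium. For both transporters every induced library lay below every control library, and Slc2a3 was lower with DoxRA than with Dox. The log2 difference of Slc2a1 was -3.11 ± 0.37 with Dox (adjusted p = 6.7e-11), and that of Slc2a3 was -3.26 ± 0.31 (adjusted p = 6.6e-15). The hexokinases phosphorylate glucose and so keep it in the cell. Hk1 stood at 5.59 and 6.67 RPM with Dox, 2.02 and 2.39 RPM with DoxRA and 22.4 and 32.0 RPM in control medium. Hk2 stood at 4.73 and 4.55 RPM with Dox, 0.578 and 0 RPM with DoxRA and 39.6 and 41.3 RPM in control medium. Both hexokinases fell without overlap; with DoxRA they rest on few reads. The log2 difference with Dox was -1.97 ± 0.36 for Hk1 (adjusted p = 8.5e-06) and -2.88 ± 0.47 for Hk2 (adjusted p = 5.1e-07).

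In the upper pathway, 6 of the 7 genes fell with Dox, and the exception was a phosphofructokinase isozyme. Pfkl, the liver-type subunit of the enzyme that commits sugar to glycolysis, stood at 0.86 and 1.82 RPM with Dox, 2.02 and 0 RPM with DoxRA and 121 and 115 RPM in control medium. Pfkp, the platelet-type subunit, stood at 41.3 and 41.0 RPM with Dox, 11.6 and 18.3 RPM with DoxRA and 142 and 201 RPM in control medium. Pfkm, the muscle-type subunit, stood at 33.5 and 28.8 RPM with Dox, 29.5 and 15.1 RPM with DoxRA and 28.6 and 40.2 RPM in control medium. The Pfkl and Pfkp libraries separated by treatment, whereas the Pfkm libraries overlapped. The log2 difference with Dox was -5.70 ± 0.62 for Pfkl (adjusted p = 3.4e-12), -2.01 ± 0.35 for Pfkp (adjusted p = 3.5e-06) and -0.12 ± 0.28 for Pfkm (adjusted p = 0.77). Aldoa, the main aldolase, stood at 96.7 and 91.9 RPM with Dox against 1288 and 1611 RPM in control medium (log2 difference -3.92 ± 0.46, adjusted p = 5.9e-11). Its isozyme Aldoc stood at 0.43 and 3.34 RPM with Dox against 33.0 and 33.8 RPM in control medium. With DoxRA no Aldoc read was found, which makes it at least 20.51-fold lower than in control medium at 3 reads per library. Gpi1, the isomerase ahead of phosphofructokinase, fell by 1.76 on the log2 scale with Dox, and Tpi1, which interconverts the products of aldolase, fell by 3.90.

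In the lower pathway, 5 of the 6 tested genes fell with Dox. Gapdh, the dehydrogenase that opens this stage, stood at 1091 and 1020 RPM with Dox, 587 and 414 RPM with DoxRA and 6866 and 5876 RPM in control medium. Pgk1, which makes ATP in the step after it, stood at 119 and 109 RPM with Dox, 69.3 and 123 RPM with DoxRA and 1201 and 1318 RPM in control medium. Gapdh was therefore lower in every induced library although it is a common reference gene. The log2 difference with Dox was -2.59 ± 0.26 for Gapdh (adjusted p = 3.7e-14), -3.45 ± 0.41 for Pgk1 (adjusted p = 5.9e-11), -2.98 ± 0.32 for the mutase Pgam1 (adjusted p = 1e-12) and -2.60 ± 0.32 for the pyruvate kinase Pkm (adjusted p = 2.3e-10). The enolases parted. Eno1, the ubiquitous form, stood at 22.4 and 16.7 RPM with Dox, 8.66 and 23.9 RPM with DoxRA and 406 and 290 RPM in control medium. Eno3, the muscle form, stood at 16.3 and 15.47 RPM with Dox, 30.9 and 33.5 RPM with DoxRA and 33.4 and 25.2 RPM in control medium. Eno1 separated by treatment, with a log2 difference of -4.08 ± 0.43 with Dox (adjusted p = 1.3e-12). Eno3 lay lower with Dox without passing the test (-0.83 ± 0.36, adjusted p = 0.06) and overlapped with the control libraries under DoxRA (0.15 ± 0.36, adjusted p = 0.74).

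Both lactate steps parted by isozyme. Ldha, the subunit that dominates in glycolytic tissue, stood at 13.3 and 9.4 RPM with Dox, 8.95 and 23.9 RPM with DoxRA and 928 and 1035 RPM in control medium. Ldhb, the heart-type subunit, stood at 182 and 224 RPM with Dox, 15.3 and 27.9 RPM with DoxRA and 227 and 315 RPM in control medium. The Dox libraries of Ldhb lay just under the control libraries and did not pass the test (-0.40 ± 0.31, adjusted p = 0.32), whereas the DoxRA libraries lay well below both (-3.63 ± 0.31 against control, adjusted p = 5.2e-19). Slc16a3, a lactate exporter of glycolytic cells, stood at 0.86 and 1.52 RPM with Dox, 0.866 and 0 RPM with DoxRA and 79.2 and 78.0 RPM in control medium. Slc16a1, the widely expressed monocarboxylate transporter, stood at 54.6 and 53.7 RPM with Dox, 75.1 and 43.0 RPM with DoxRA and 62.6 and 97.4 RPM in control medium. Slc16a3 fell (-5.20 ± 0.79 with Dox, adjusted p = 1.4e-07), and Slc16a1 did not pass the test (-0.52 ± 0.70, adjusted p = 0.6).

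The regulators moved in both directions. The PFKFB enzymes make and break the sugar bisphosphate that activates phosphofructokinase. Pfkfb3, the family member with the strongest kinase activity, stood at 17.2 and 24.3 RPM with Dox, 1.44 and 0.797 RPM with DoxRA and 35.5 and 91.3 RPM in control medium. Pfkfb2 stood at 15.0 and 20.0 RPM with Dox, 28.0 and 37.5 RPM with DoxRA and 3.44 and 12.6 RPM in control medium. Pfkfb3 fell with Dox (-1.44 ± 0.40, adjusted p = 0.0028) and Pfkfb2 rose (1.24 ± 0.41, adjusted p = 0.013), the 1 member called higher. Pfkfb1 stood at 17.2 and 16.7 RPM with Dox against 13.8 and 24.8 RPM in control medium, which overlap. Of the pyruvate dehydrogenase kinases, Pdk1 stood at 45.6 and 46.1 RPM with Dox, 28.6 and 19.9 RPM with DoxRA and 362 and 239 RPM in control medium. Pdk3 stood at 113 and 106 RPM with Dox, 109 and 97.2 RPM with DoxRA and 75.4 and 74.4 RPM in control medium. Pdk1 fell (-2.66 ± 0.40 with Dox, adjusted p = 8.7e-08), while every induced Pdk3 library lay above the control libraries by a difference that missed the threshold (0.54 ± 0.23 with Dox, adjusted p = 0.059).

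**Figure D1:**
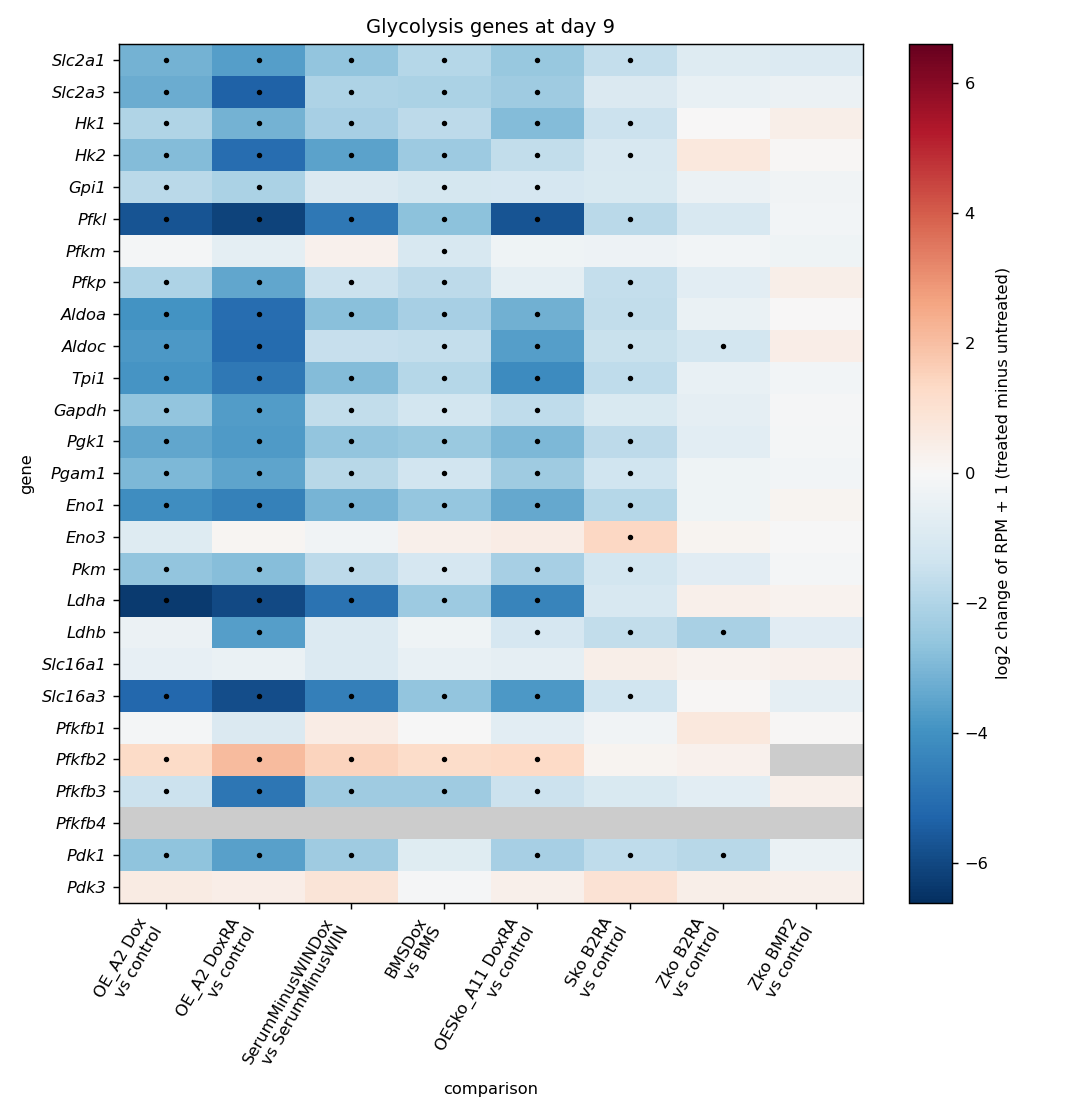
Log2 differences at day 9 for the 27 members that were ever tested (rows) in 8 comparisons of treated with control libraries (columns); blue is lower and red higher in the treated cells, a black dot marks a called difference and grey a gene that was not tested. The induced arms are blue in most rows, Pfkfb2 is red in them, and the Zglp1-/- clones (Zko) are without dots apart from Aldoc, Ldhb and Pdk1 with B2RA; the Aldoc colour under DoxRA is a fitted value of libraries without a read.

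The other induced arms, which have control libraries of their own, lowered most of the same genes. In SerumMinusWIN medium, 17 of 26 tested members were lower with Dox and 1 was higher, where 9.71% of all genes were lower, and the members' median was -1.93. With BMS, 19 of 26 were lower and 1 was higher, where 6.39% of all genes were lower, with a median of -1.66; without library 2 of BMSDox the count was 9, and without library 1 of BMS it was 10. In OESko_A11, which lacks Stra8, 19 of 26 were lower with DoxRA and 1 was higher, where 6.56% of all genes were lower, with a median of -2.20. The single higher member was Pfkfb2 in each of them. Of the 26 members tested in all 4 comparisons of Dox, SerumMinusWINDox, BMSDox and OESko_A11 DoxRA, which share no library, 15 (57.7%) were called lower in all 4, and 157 of 8543 genes (1.84%) were. The 15 were Slc2a1, Slc2a3, Hk1, Hk2, Pfkl, Aldoa, Tpi1, Gapdh, Pgk1, Pgam1, Eno1, Pkm, Ldha, Slc16a3 and Pfkfb3. Among them Hk1, Hk2, Pfkl, Ldha and Slc16a3 passed the filter with Dox through the control libraries alone. Such passage was not examined for SerumMinusWINDox, BMSDox and OESko_A11, and no count was made without these members. The arms differed at Ldhb, which was called lower in OESko_A11 (280 and 269 RPM with DoxRA against 603 and 583 RPM, log2 difference -1.11 ± 0.31, adjusted p = 0.0033). With BMSDox, Ldhb stood at 419 and 445 RPM against 470 and 594 RPM with BMS (-0.29 ± 0.31, adjusted p = 0.5). Of the 5 induced arms, BMSDox was the 1 in which Pfkm was called lower at day 9, where it stood at 36.9 and 32.2 RPM against 93.0 and 56.6 RPM with BMS (-1.05 ± 0.28, adjusted p = 0.0017).

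BMS alone, at day 9, raised 2 of 25 tested members over control medium, where 0.542% of all genes were higher. They were Pfkm (1.08, adjusted p = 0.014) and Pfkfb3 (1.40, adjusted p = 0.029); the count was 0 in a model of these groups alone, and 0 without library 1 of BMS or library 1 of the control. The Dox response in BMS was weaker than in control medium for 3 members of 26, where 1.33% of all genes were higher by that difference. They were Gapdh, Pgam1 and Ldha, and the count ranged from 0 to 5 as single libraries were left out. It was 0 without library 1 of BMSDox, library 2 of BMS, either library of Dox or library 1 of the control, and 5 without library 2 of BMSDox. For Ldha the difference was 3.94 on the log2 scale, between BMSDox at 517 and 100 RPM against BMS at 1561 and 917 RPM, and the control-medium values above. The 2 BMSDox libraries lay far apart for this gene.

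Some members were lower still with RA added to Dox. Against Dox at day 9, 5 of the 21 members tested were lower with DoxRA and 0 were higher, where 10.6% of all genes were lower; at an unadjusted p under 0.05, 10 of the 21 moved in either direction. The 5 were Ldhb (-3.22 ± 0.31, adjusted p = 2e-15), Pfkfb3 (-3.35 ± 0.40, adjusted p = 3e-11), Slc2a3 (-2.08 ± 0.31, adjusted p = 3.7e-08), Gapdh (-1.10 ± 0.26, adjusted p = 0.00063) and Pfkp (-1.43 ± 0.35, adjusted p = 0.0013). Without the filter on low values the count was 8. Ldhb had not been called with Dox alone, and its DoxRA libraries lay far below its Dox libraries. In OESko_A11, the DoxRA response was weaker than in OE_A2 for 7 of 26 members, where 14.8% of all genes were higher by that difference. These were Slc2a3, Hk2, Pfkp, Aldoa, Gapdh, Ldhb and Pfkfb3. For Ldhb the DoxRA response was -1.11 in OESko_A11 and -3.63 in OE_A2. The 2 lines differ in Stra8 and are 1 clone each, which cannot be told apart.

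The control cells were not constant over the culture. In OE_A2 control medium, 12 of 26 tested members were higher at day 9 than at day 4 and 1 was lower, where 7.35% of all genes were higher. In OESko_A11 12 of 26 rose, where 7.45% of all genes did, and the count was 4 or 3 without either library of day 9. In the Zko clones 8 of 26 rose, where 9.99% of all genes did (5 without library 2 of Zko_G10 control at day 9), and in the Sko clones 12 of 27, where 6.27% of all genes did. Ldha in OE_A2 control medium stood at 12.6 and 30.7 RPM at day 4, 14.49 and 33.7 RPM at day 5, 130 and 429 RPM at day 7 and 928 and 1035 RPM at day 9 (log2 difference of day 9 over day 4, 5.56 ± 0.77, adjusted p = 1.4e-07). Eno1 stood at 14.8 and 62.0 RPM at day 4 and 406 and 290 RPM at day 9, and Pfkl at 7.21 and 15.6 RPM at day 4 and 121 and 115 RPM at day 9. For these 3 genes day 9 lay above day 4 in each library. In OE_A2, Pfkl, Aldoc and Slc16a3 did not reach 10 RPM in both day 4 libraries, so they passed the filter through day 9 alone. Such passage was not examined for the other members or lines, and no count was made without members of that kind. Ldhb went the other way, at 718 and 631 RPM at day 4 and 227 and 315 RPM at day 9 (-1.33 ± 0.31, adjusted p = 0.0013).

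Set against the control of day 4 instead of day 9, the losses were fewer. With Dox, 14 of 23 tested members were lower at day 9 than in control cells of day 4, where 13.6% of all genes were, and with DoxRA 17 of 23, where 23.1% of all genes were. With SerumMinusWINDox 10 of 23 were lower, where 11.8% of all genes were, and in OESko_A11 12 of 23, where 8.73% of all genes were. With BMSDox only Hk1 of 24 members was lower (-1.10 ± 0.36, adjusted p = 0.012), where 6.78% of all genes were, and Ldha was higher (2.08 ± 0.77, adjusted p = 0.027). Slc2a1, Slc2a3, Hk1 and Gapdh, for example, were lower by either reference with Dox (Hk1 -2.60 ± 0.36 against day 4, adjusted p = 2.5e-09). Ldha (-0.77 ± 0.77, adjusted p = 0.41) and Eno1 (-0.63 ± 0.43, adjusted p = 0.22) were called lower with Dox against day 9 controls and not against day 4 controls. Pfkl, Aldoc and Slc16a3 could not be tested against day 4 with Dox, because they did not reach 10 RPM in 2 libraries. Ldhb was the reverse of Ldha, with -1.73 ± 0.31 against day 4 controls (adjusted p = 1.3e-06).

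The order of loss was read as the day from which a member was called lower against its same-day control and on every later day. In the 5 induced arms together, Hk1 was the earliest, from day 4 in 1 arm, day 5 in 2 and day 7 in 2. Its day 4 call was with DoxRA, and its day 5 calls were with Dox and in OESko_A11. With SerumMinusWINDox and BMSDox, Hk1 was lower from day 7. In these arms and in OESko_A11, libraries and controls carry 1 extraction label. Across the 5 arms, Slc2a1 fell from day 5 in 2 and day 7 in 3. Eno1 fell from day 5 in 2, day 7 in 2 and day 9 in 1. Pfkl and Aldoa fell from day 7 in all 5. Slc16a3 fell from day 7 in 1 arm and day 9 in 4, Gpi1 and Aldoc each from day 7 in 1 and day 9 in 3, and Pfkm in 1 arm at day 9. Slc16a3 and Aldoc did not reach the filter at days 5 and 7 in these arms apart from BMSDox at day 7, so their day tells when they could be tested and is not set against that of the other members. Slc16a3 lay at -2.06 with Dox and -2.68 with DoxRA at day 7 without being tested. With Dox, Slc2a1 and Hk1 were the 2 members lower at day 5 of 24 tested, where 5.00% of all genes were lower. At day 7 there were 16 of 24, where 11.8% of all genes were, and at day 9 Gpi1 was called as well, with Aldoc and Slc16a3, which were not tested at day 7. With DoxRA 10 of 24 were lower at day 5, where 7.98% of all genes were, and 18 of 24 at day 7, where 18.8% were. With SerumMinusWINDox none of 23 was called at day 5, where 1.65% of all genes were lower and 4 members had an unadjusted p under 0.05, and 13 of 23 were lower at day 7, where 6.50% of all genes were. With BMSDox 1 of 23 was lower at day 4, where 4.44% of all genes were, and 1 of 24, Eno1, at day 5, where 4.17% were. At day 7 with BMSDox 18 of 26 were lower, where 5.15% of all genes were. OESko_A11 was later, with 7 of 24 lower at day 7, where 2.04% of all genes were. A rule of at most 50% of the control mean, applied to tested members, gave 3 members in place of none by day 5 with SerumMinusWINDox. These were Pfkl, Eno1 and Ldha. With BMSDox the rule gave Hk2 from day 4 and the same 3 members from day 5. Hk1 met it from day 7 in both arms.

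**Figure D2:**
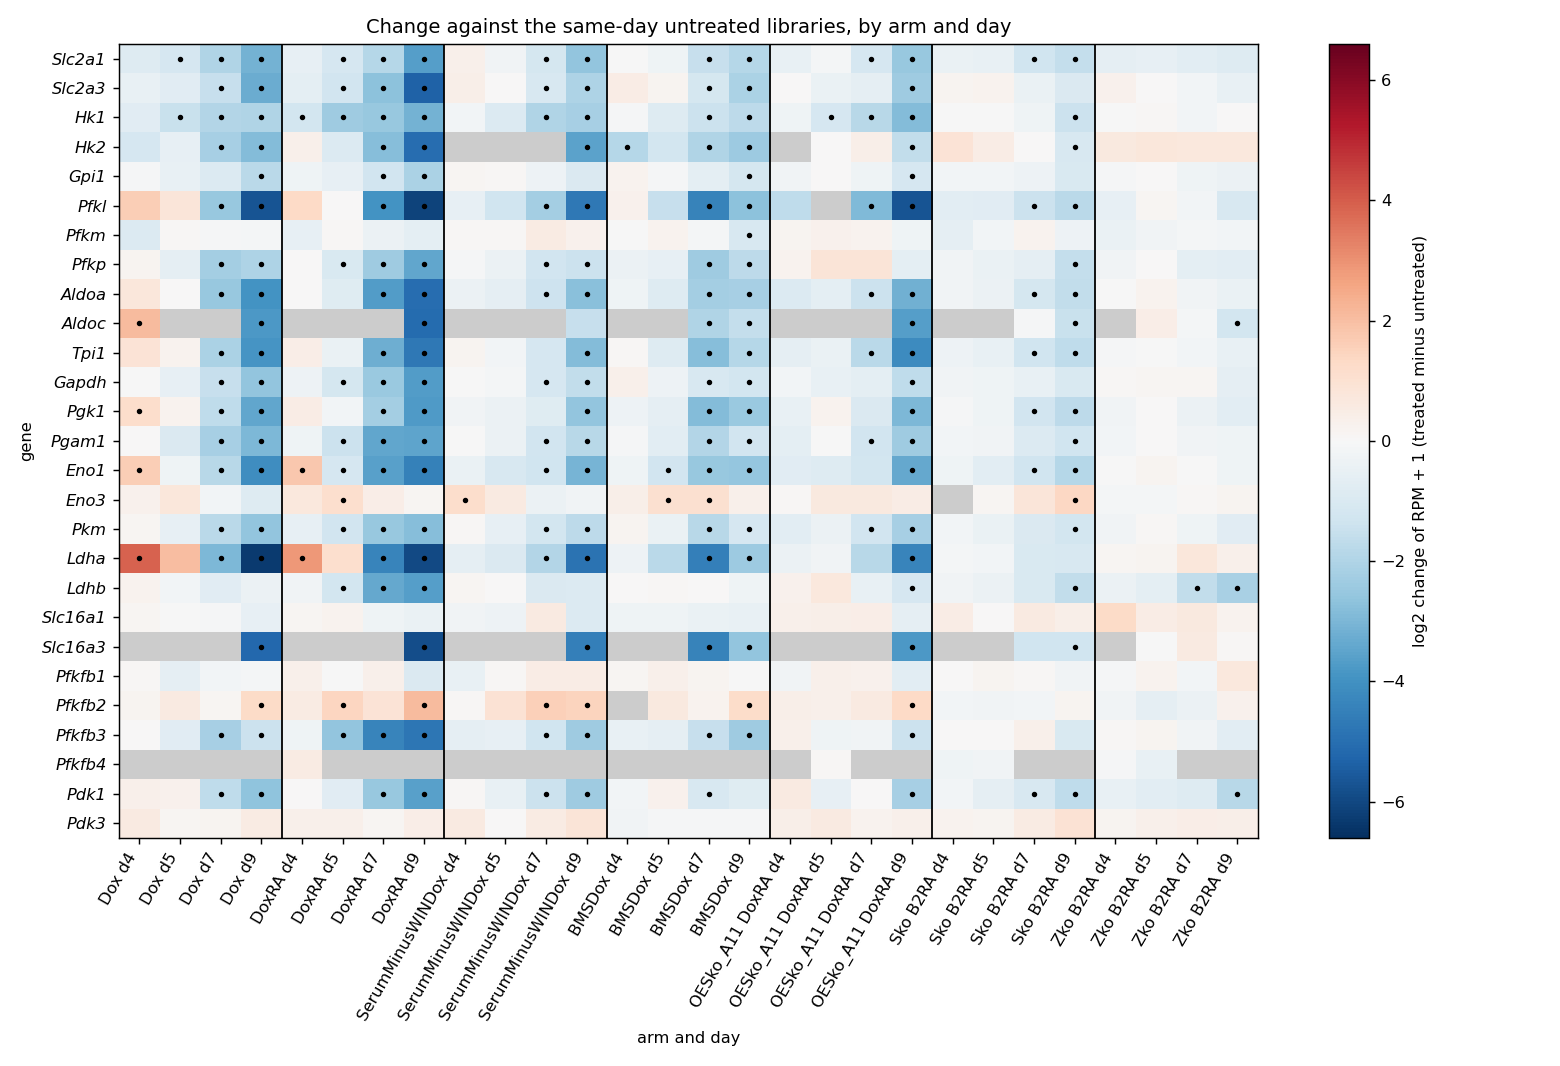
Log2 differences against same-day libraries of the matching arm without Dox or B2RA for the 27 members that were ever tested (rows), at days 4, 5, 7 and 9 of 5 induced arms and of the B2RA arms of the Sko and Zko clones (columns); blue is lower and red higher in the treated cells, black dots mark called differences and grey genes not tested. With Dox, 4 red dotted rows at day 4 precede blue dotted rows, which spread from Slc2a1 and Hk1 at day 5 to most rows at days 7 and 9. With DoxRA, Hk1 is lower from day 4 and 10 members are lower at day 5. At day 5 the lower member with BMSDox is Eno1, and SerumMinusWINDox has no dot. The Zko columns hold 1 dot at day 7 and 3 at day 9.

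The same-day controls of days 4, 5 and 7 carry another RNA extraction label than the Dox and DoxRA libraries of those days, apart from 1 DoxRA library of day 7, so treatment and extraction cannot be told apart there; at day 9 the labels are equal. Hk1, for example, stood at 24.0 and 26.0 RPM at day 4, 15.52 and 17.5 RPM at day 5, 3.09 and 13.9 RPM at day 7 and 5.59 and 6.67 RPM at day 9 with Dox. Its controls stood at 42.9 and 41.1 RPM, 51.9 and 42.6 RPM, 28.6 and 28.9 RPM and 22.4 and 32.0 RPM on those days. Every Dox library lay below the controls of its day from day 4 on. Against untreated OE_A2 cells of day 3, which carry the same extraction label as the Dox libraries of days 4 to 7, more members were called lower at day 5. This reference differs in day as well, and the members' summed level was 12040 and 10089 RPM in it, against 7518 and 7154 RPM in control medium at day 4. By it 10 of 24 members were lower with Dox at day 5, where 3.28% of all genes were, and 16 of 23 at day 7, where 10.5% were. With DoxRA 16 of 24 were lower at day 5, where 6.07% of all genes were. At day 4 with Dox 2 of 24 were lower, where 1.06% of all genes were, Hk1 (-1.40 ± 0.36, adjusted p = 0.0051) and Eno1 (-1.64 ± 0.43, adjusted p = 0.0057). Hk1 was among the earliest by both references. Against same-day controls, Ldha, Eno1, Pgk1 and Aldoc were higher with Dox at day 4, 4 of 25 tested, where 6.01% of all genes were higher, and against untreated day 3 cells 0 were. Ldha at day 4 stood at 170 and 555 RPM with Dox against 12.6 and 30.7 RPM in control medium and 384 and 404 RPM in untreated cells of day 3.

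**Figure D3:**
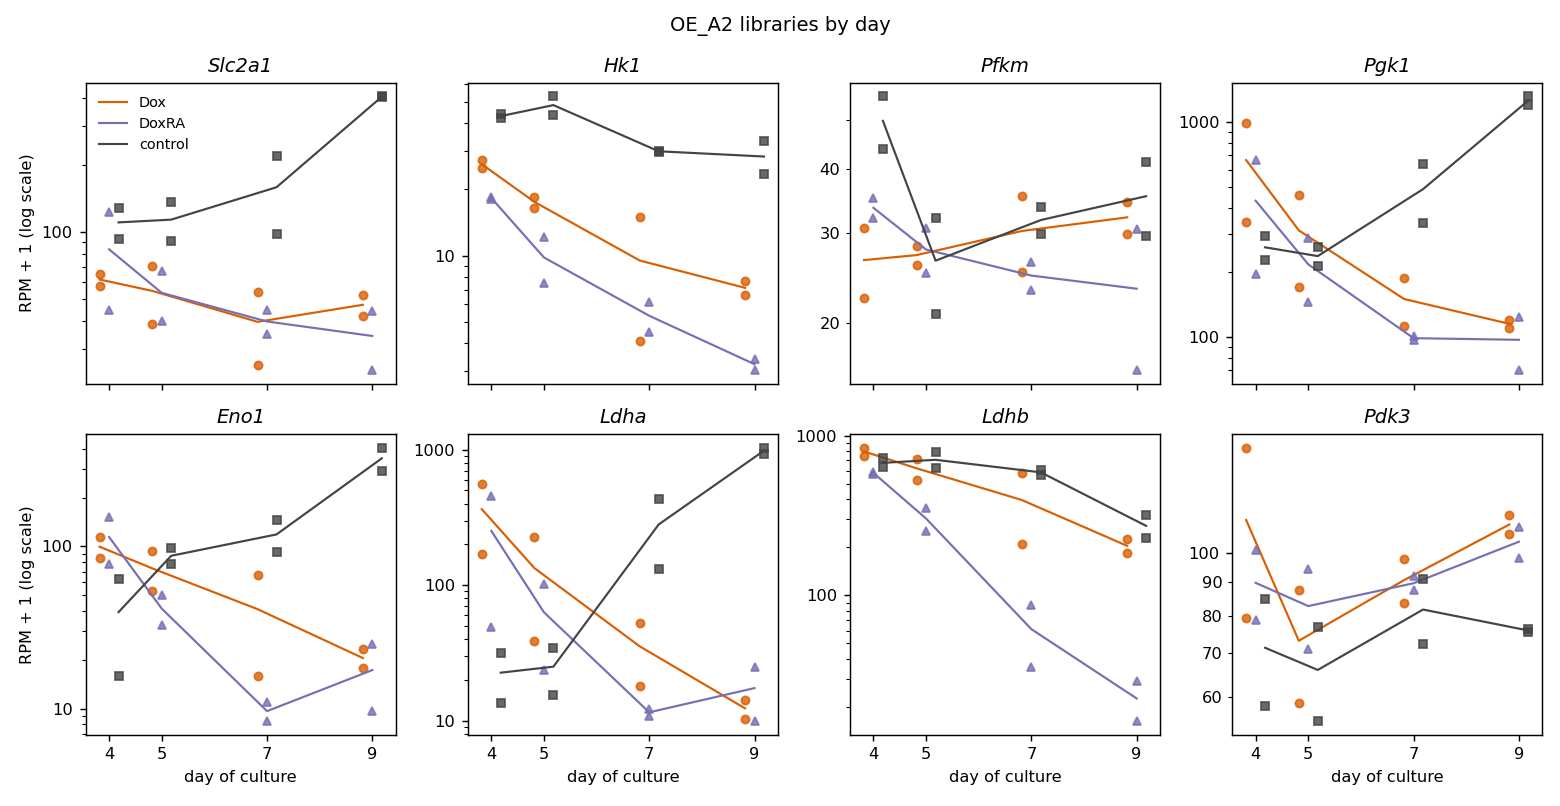
Levels of 8 members by culture day in OE_A2 with Dox, DoxRA and control medium; points are libraries at RPM + 1 on a log axis and lines join group means. Ldha, Eno1 and Pgk1 climb in control cells while they fall in induced cells, Ldhb falls in all 3 groups and furthest with DoxRA, and the Pfkm points of the 3 groups overlap at day 9.

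Because some isozymes were lower than in day 9 controls and others were not, the make-up of the families differed from that of day 9 controls. In OE_A2 control medium Ldha, Eno1 and Pfkl had themselves risen between day 4 and day 9. Of the control shares, that of Ldhb alone is given at day 4. A share is given here as a gene's percent of the 3' tags of its family in a library. Ldhb made up 93.2% and 96.0% of Ldha and Ldhb tags with Dox, 63.1% and 53.8% with DoxRA and 19.6% and 23.4% in control medium at day 9. In control medium at day 4 the Ldhb share was 98.3% and 95.4%, so the control share moved and the Dox share lay close to that of day 4. The Ldhb share was also higher in OESko_A11 (93.8% and 91.9% with DoxRA against 59.2% and 54.2%), with SerumMinusWINDox (84.4% and 88.9% against 35.6% and 23.0%) and with BMSDox (44.8% and 81.6% against 23.1% and 39.3%). In the Zko clones it was lower with B2RA, at 20.3% to 39.5% against 42.3% to 77.5% in control medium, where it was Ldhb and not Ldha that fell. In the Sko clones the ranges overlapped (36.9% to 71.2% against 46.5% to 72.6%).

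At day 9 the Pdk3 share was higher in the induced arms than in their controls, and with B2RA than in the control medium or BMP2 of the same line. It made up 70.7% and 69.0% of pyruvate dehydrogenase kinase tags with Dox, 78.8% and 81.9% with DoxRA and 17.2% and 23.4% in control medium. With B2RA it reached 69.3% to 84.3% in the Sko clones against 26.9% to 49.5%, 55.8% to 73.2% in the Zko clones against 27.5% to 38.3%, and 88.8% and 92.3% in H18 against 78.5% and 63.9% with BMP2. The Pdk3 groups did not overlap in these or in the SerumMinusWINDox, BMSDox and OESko_A11 comparisons. The Pfkm share of phosphofructokinase tags was 44.3% and 40.3% with Dox, 68.5% and 45.2% with DoxRA and 9.79% and 11.3% in control medium. The Eno3 share of enolase tags was 39.2% and 48.1% with Dox, 77.5% and 58.3% with DoxRA and 7.55% and 7.78% in control medium. For both, the libraries were above their references in all the comparisons given for Pdk3 except that of the Zko clones. There the pooled ranges overlapped (Pfkm 15.51% to 32.4% against 14.4% to 18.1%, Eno3 5.71% to 10.4% against 3.33% to 10.9%). Slc16a1 made up 98.4% and 97.3% of Slc16a1 and Slc16a3 tags with Dox against 44.2% and 55.5% in control medium. Pfkfb2 made up 30.2% and 31.4% of PFKFB tags with Dox and 66.9% and 69.1% with DoxRA, against 6.17% and 9.56% in control medium. The Slc2a1 share of Slc2a1 and Slc2a3 tags overlapped with Dox, at 36.7% and 29.1% against 31.9% and 29.7% in control medium. These shares follow from the levels above and carry no test of their own.

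**Figure D4:**
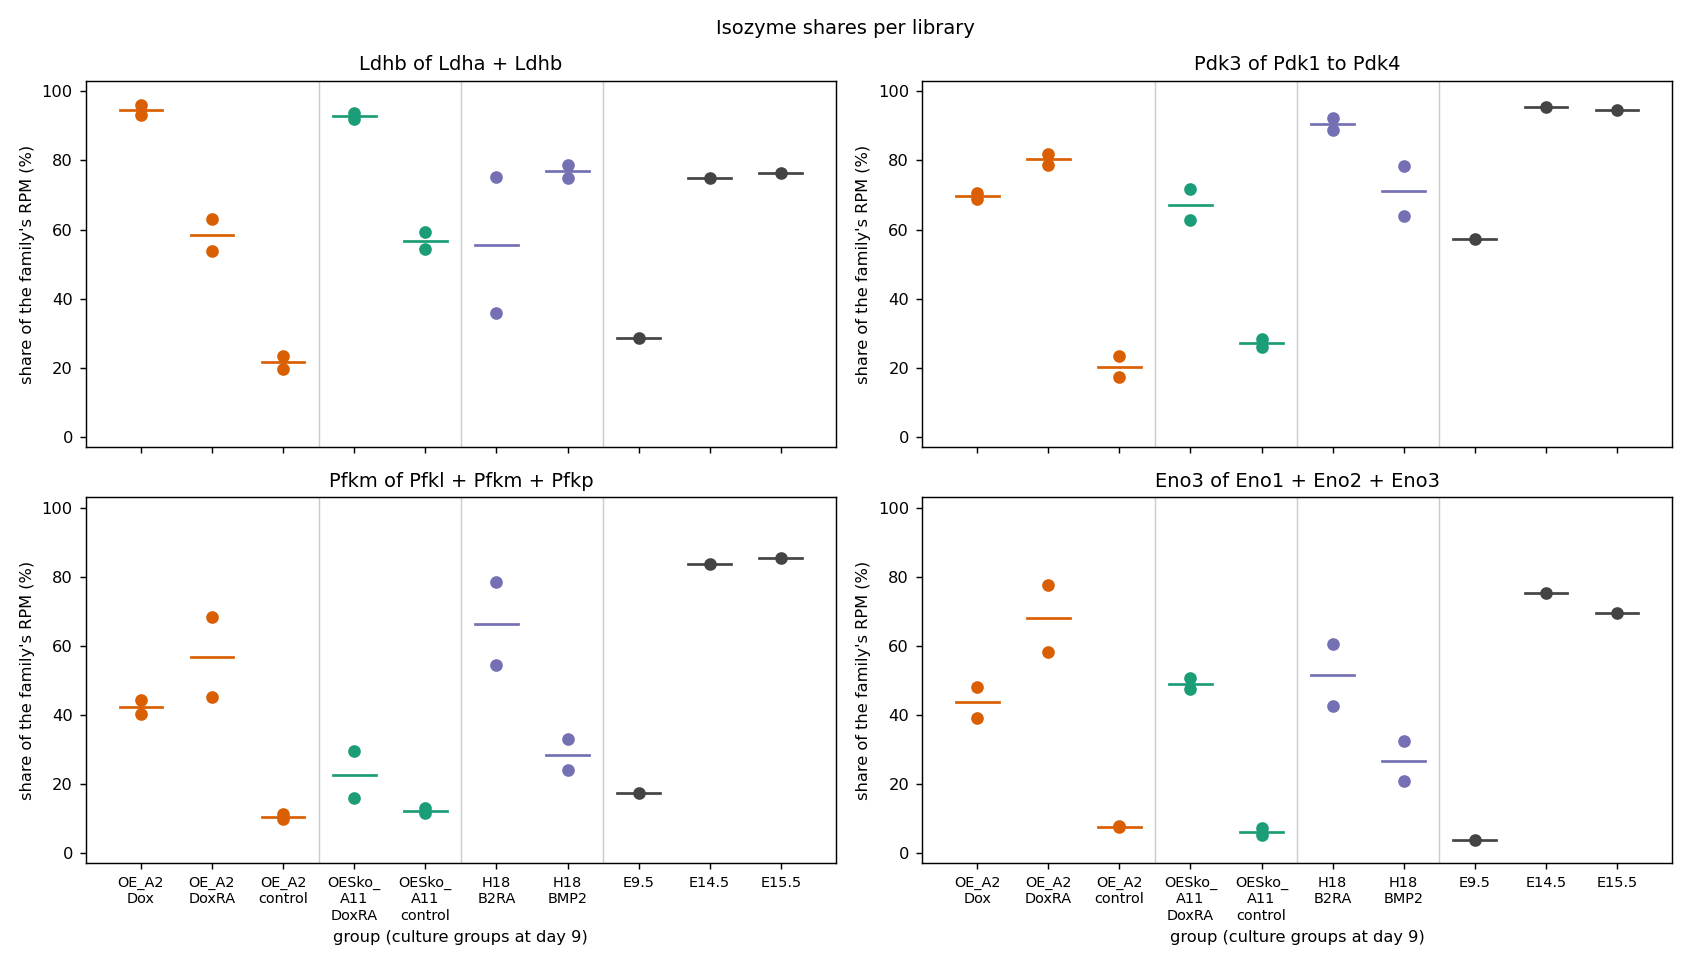
Shares of Ldhb, Pdk3, Pfkm and Eno3 in the tags of their families, in percent, for each library of OE_A2, OESko_A11 and H18 at day 9 and for the embryos; points are libraries and bars are means. The induced groups of OE_A2 and OESko_A11 stand above their controls in all 4 panels, H18 B2RA stands above BMP2 except for Ldhb, and the E14.5 and E15.5 oocytes stand above E9.5 cells.

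In the parental line H18, B2RA was set against BMP2 on the same day. At day 9 in H18, Ldha stood at 139 and 44.9 RPM with B2RA against 57.9 and 114 RPM with BMP2, and Eno1 at 27.7 and 17.1 RPM against 47.4 and 60.4 RPM. Ldha overlapped and Eno1 did not. Of 24 members tested, 7 were lower with B2RA than with BMP2, where 6.98% of all genes were lower. They were Pfkp (-2.75 ± 0.35, adjusted p = 1.6e-09), Gapdh, Pgam1, Eno1, Ldhb, Pfkfb3 and Pdk1; the count was 4 without library 2 of B2RA and 2 without library 2 of BMP2. Beside this, the stroma markers Col3a1, Tagln and Col1a1 were called higher with B2RA, with a summed level of the 20 markers of 496 to 1294 RPM against 464 to 1050 RPM with BMP2, and 7 of 9 tested germ cell markers were lower; their part in the result was not tested. Over time, 12 of 24 members were lower at day 9 than at day 3.5 with B2RA, where 15.9% of all genes were. With BMP2 3 of 24 were, where 4.03% of all genes were, and the count was 0 without library 1 of day 9, 5 without library 2, and 5 with edgeR or with TMM scaling. The 3 were Hk1, Pfkp and Eno1. Ldha and Eno3 rose over that time in both arms, by 2.13 and 1.66 on the log2 scale with BMP2.

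Few members fell in the clones without Zglp1. With B2RA against control medium at day 9, 3 of 26 tested members were lower in the Zko clones and 0 were higher, where 4.33% of all genes were lower. They were Ldhb (-2.15 ± 0.22, adjusted p = 4.9e-14), Pdk1 (-1.85 ± 0.28, adjusted p = 1.3e-07) and Aldoc (-1.21 ± 0.45, adjusted p = 0.033), whose libraries overlapped. At an unadjusted p under 0.05, 15 of the 26 moved, and the count called lower was 5 with TMM scaling and 5 without library 1 of Zko_E5 B2RA. Ldhb stood at 205, 122, 133 and 152 RPM with B2RA against 575, 728, 733 and 643 RPM in control medium. Ldha stood at 314, 371, 520 and 547 RPM with B2RA against 176, 388, 213 and 878 RPM in control medium. Ldhb separated by treatment in both clones, and Ldha overlapped. The SE of these comparisons holds the spread between libraries and none between clones. With BMP2 alone none of 25 members was called in limma or in edgeR, where 1.46% of all genes were called in either direction and 3 members had an unadjusted p under 0.05; 1 was called without the filter on low values, and 1 without library 1 of Zko_G10 control. B2RA lowered 5 of 26 members compared with BMP2 in these clones, where 2.79% of all genes were lower: Pfkp, Aldoc, Ldhb, Pfkfb3 and Pdk1 (3 without library 2 of Zko_E5 B2RA).

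Compared with H18 under the same factors, the Zko clones held more glycolysis tags. Under BMP2 17 of 26 members were higher in Zko than in H18 and 2 lower, where 6.07% of all genes were higher, and under B2RA 17 of 26 were higher and 2 lower, where 15.4% were. Pfkl stood at 60.5, 50.3, 81.6 and 83.3 RPM in Zko with BMP2 against 3.38 and 10.8 RPM in H18 (3.25 ± 0.54, adjusted p = 1.3e-06). Eno1 stood at 162, 134, 217 and 337 RPM in Zko with B2RA against 27.7 and 17.1 RPM in H18 (3.14 ± 0.37, adjusted p = 1.1e-11). Pfkfb2 and Pdk3 were the 2 lower members in both, Pdk3 by 1.14 ± 0.20 on the log2 scale under BMP2, where it stood at 77.0, 54.7, 93.0 and 100.7 RPM in Zko against 184 and 167 RPM in H18. The Zko and H18 libraries did not overlap for any of the 3 genes. Pfkl did not reach 10 RPM in both H18 libraries with BMP2, so it passed the filter there through the Zko libraries alone. Such passage was not examined for the other members, and no count was made without members of that kind. Without library 1 of H18 BMP2 the count under BMP2 was 9. The lines are separate clones, so clone and deletion cannot be told apart.

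In the clones without Stra8, the members' summed level at day 9 was lower with B2RA than in control medium. The control level had risen by then, in Sko_B6 from 10238.5 and 9679.5 RPM at day 4 to 15457 and 21781 RPM. In Sko_F6 it rose from 7276 and 8355 RPM to 16038 and 20264 RPM. With B2RA the level went from 8402 and 8663 RPM to 7817 and 11541 RPM in Sko_B6. In Sko_F6 with B2RA it went from 6654 and 7253 RPM to 5552 and 7905.5 RPM. In the Sko clones 15 of 26 members were lower at day 9 with B2RA than in control medium and 1 was higher, where 5.08% of all genes were lower, and the members' median was -1.26. Slc2a1 stood at 70.3, 125, 53.8 and 79.1 RPM with B2RA against 163, 229, 224 and 354 RPM in control medium (-1.57 ± 0.26, adjusted p = 4.9e-07). Eno1 stood at 136, 258, 100.7 and 145 RPM with B2RA against 475, 865, 412 and 610 RPM in control medium (-1.91 ± 0.31, adjusted p = 1.9e-07). Both separated by treatment in both clones. Eno3 was the member called higher, at 34.5, 30.6, 32.6 and 36.4 RPM with B2RA against 12.95, 16.7, 10.3 and 10.3 RPM in control medium (1.37 ± 0.25, adjusted p = 3.5e-06). Pdk3 lay higher by 0.96 ± 0.16 (adjusted p = 7.7e-07), under the threshold of 1. Ldha overlapped and did not pass the test (-1.06 ± 0.54, adjusted p = 0.1). At day 7, 7 of 26 were lower, where 1.95% of all genes were. Against control cells of day 4, 5 of 27 members were lower at day 9 and 4 higher, where 5.75% of all genes were lower and 23.1% higher. In the Zko clones 5 of 26 were higher and 2 lower, where 18.9% of all genes were higher and 5.82% lower. Compared with H18 under B2RA, 18 of 26 members were higher in the Sko clones and 0 lower, where 11.3% of all genes were higher. Whether members passed the filter through the Sko libraries alone was not examined.

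The responses of these lines were also compared with each other in the model. The B2RA response of the Sko clones was lower than that of the Zko clones for 4 of 26 members, Hk1 (-1.45 ± 0.36, adjusted p = 0.0038), Hk2 (-1.73 ± 0.47, adjusted p = 0.0073), Pgam1 (-1.03 ± 0.32, adjusted p = 0.02) and Eno1 (-1.61 ± 0.43, adjusted p = 0.0073), where 1.71% of all genes were. It was higher for Eno3 (1.19 ± 0.36, adjusted p = 0.017). Hk2, for example, stood at 16.1, 15.7, 18.7 and 23.2 RPM in Sko with B2RA against 27.8, 46.1, 35.2 and 49.0 RPM in control medium, and at 52.4, 75.1, 59.8 and 44.4 RPM in Zko with B2RA against 27.2, 29.7, 34.0 and 53.7 RPM in control medium. The Sko libraries with B2RA lay below those in control medium without overlap, and the Zko libraries overlapped. Without library 2 of Sko_F6 B2RA the count was 7. Genotype and clone differ together between Sko and Zko and cannot be told apart. The DoxRA response of OE_A2 was lower than the B2RA response of Zko for 21 of 26 members and higher for 1, Pfkfb2, where 24.9% of all genes were lower. Treatment, genotype and clone differ together in this comparison and cannot be told apart. Among the 21 were Ldhb (-1.48 ± 0.38, adjusted p = 0.00058) and Pdk1 (-1.72 ± 0.49, adjusted p = 0.0022), 2 of the 3 members called lower in the Zko clones; the third, Aldoc, was among the 21 too, with no read in the DoxRA libraries.

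Most members were lower in the embryonic oocytes than in E9.5 germ cells, with 1 library per stage and no replicate check. Of the members at 20 RPM or more in either library, 17 of 23 were over 4-fold lower at E14.5 than at E9.5 and 17 of 25 at E15.5, and 0 were over 4-fold higher. Over all genes the shares were 12.1% lower and 16.2% higher at E14.5, and 13.5% lower and 17.1% higher at E15.5. In the order E9.5, E14.5, E15.5, Ldha stood at 486, 28.8 and 18.6 RPM, Eno1 at 307, 6.06 and 10.01 RPM and Slc2a3 at 458, 17.6 and 12.2 RPM. These fell at the oocyte stages by more than 10-fold. Pfkm stood at 24.9, 26.4 and 25.0 RPM, Pdk3 at 118, 334 and 316 RPM and Pfkfb1 at 11.001, 23.6 and 23.2 RPM. Pfkm kept its level across the stages, and Pdk3 was higher in the oocytes. Hk2 had 21.0 RPM at E9.5, no read at E14.5, where 3 reads would be 0.909 RPM, and 0.357 RPM at E15.5. The Pfkm share of phosphofructokinase tags was 17.4% at E9.5, 83.7% at E14.5 and 85.4% at E15.5, the Eno3 share of enolase tags 3.90%, 75.3% and 69.6%, and the Pdk3 share 57.3%, 95.4% and 94.5%. The Ldhb share was 28.5%, 74.9% and 76.3%. Stage and reporter cross differ together between E9.5 and the later stages and cannot be told apart.

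**Figure D5:**
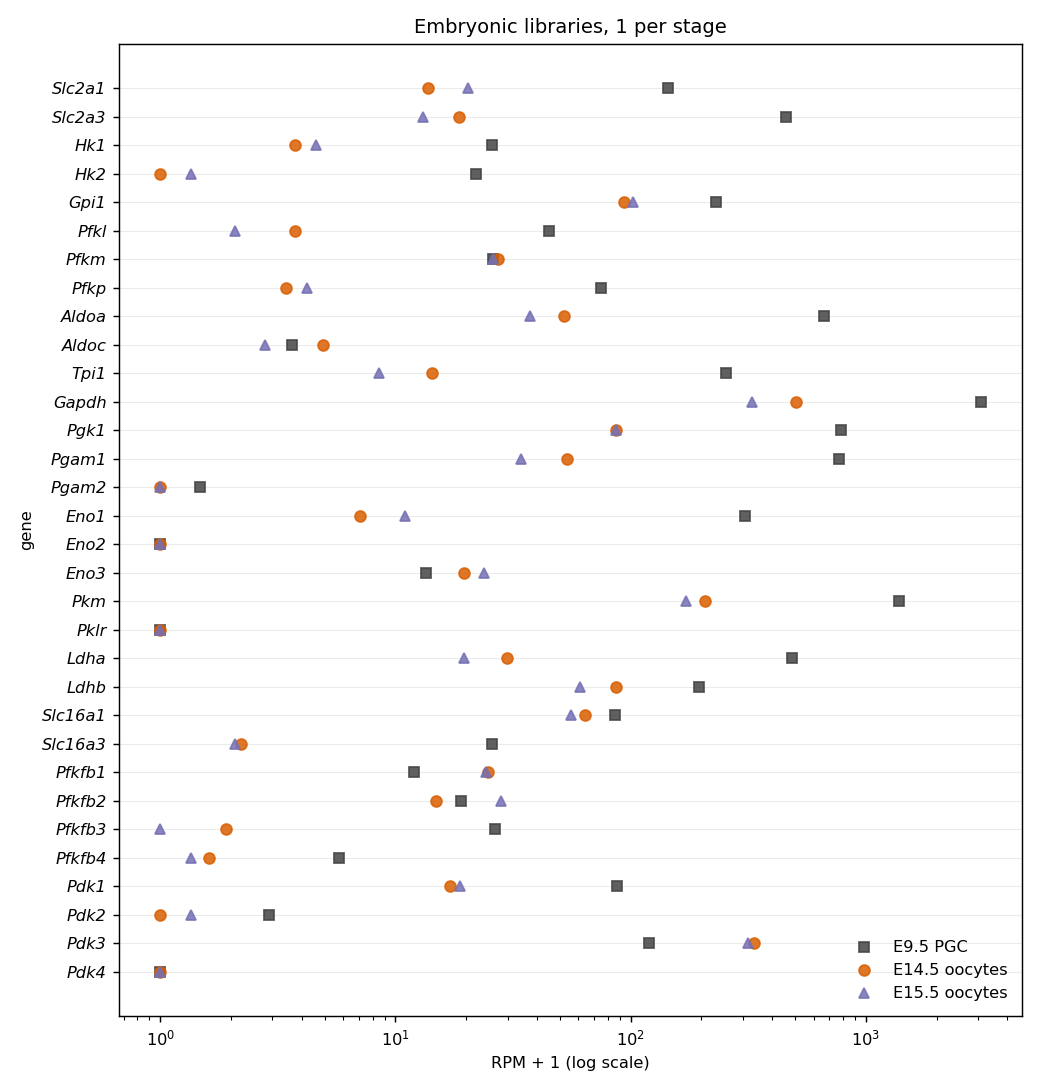
Levels of the 32 members in the 3 embryo libraries, as RPM + 1 on a log axis, 1 library per stage. Most members are lower at E14.5 and E15.5 than at E9.5, with Pfkm level and Pdk3 higher.

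Neighbouring pathways, taken from lists chosen with earlier results of these data known, are set here against all genes with Dox at day 9, of which 13.4% were higher and 9.38% lower. Of 26 tested genes of pyruvate entry and the citric acid cycle, 4 rose and 1 fell, with a median of 0.21. Pcx, pyruvate carboxylase, lay between 164 and 194 RPM with Dox and between 25.1 and 31.3 RPM in control medium (2.63 ± 0.32, adjusted p = 1e-10). Brp44l, the older symbol of a subunit of the mitochondrial pyruvate carrier, rose by 2.06 ± 0.38 (adjusted p = 8.5e-06), and Pdp1, the phosphatase that opposes the pyruvate dehydrogenase kinases, by 1.48 ± 0.42 (adjusted p = 0.0035). Pdha1, a subunit of pyruvate dehydrogenase itself, fell by 1.09 ± 0.21 on the log2 scale (adjusted p = 1.3e-05). Of 11 pentose phosphate genes 1 rose and 2 fell; Tktl1, a transketolase-like gene, lay between 91.9 and 127 RPM with Dox and between 5.39 and 5.51 RPM in control medium (4.08 ± 0.52, adjusted p = 4.2e-10), while the transketolase Tkt fell by 1.47 ± 0.35 (adjusted p = 0.0005). Of 8 other glycolysis genes 2 fell, the phosphoglucomutases Pgm1 and Pgm2 (Pgm2 -1.97 ± 0.39, adjusted p = 2.5e-05). Of 7 gluconeogenesis and glycogen genes, the glycogen synthase Gys1 fell by 1.47 ± 0.34 (adjusted p = 0.0004). Of 15 regulators 6 fell and 1 rose. The 6 were the oxygen sensor genes Egln1 and Egln3, the hypoxia targets Bnip3 and Bhlhe40, and Epas1 and Esrrb. Lin28b, an RNA-binding protein gene, was the 1 that rose (2.57 ± 0.51, adjusted p = 2.8e-05). With SerumMinusWINDox 2 of 15 fell, Mycn and Esrrb, where 9.71% of all genes did. With BMSDox 2 of 17 fell, Bnip3 and Vegfa, where 6.39% of all genes did, and Hif1a and Lin28b rose, where 14.8% did. In OESko_A11 with DoxRA 5 of 16 fell, Bnip3, Ankrd37, Egln3, Esrrb and Epas1, where 6.56% of all genes did. Of 7 isozyme genes of germ cells found in the table, Ldhc, the testis lactate dehydrogenase, was the 1 tested with Dox, and it rose by 1.51. With DoxRA, where 25.6% of all genes were higher, both tested genes of that list rose, Pdha2, a testis isozyme of the pyruvate dehydrogenase subunit, and Eno4, an enolase of sperm. Eno4 lay between 27.1 and 48.6 RPM with DoxRA and between 2.16 and 3.10 RPM in control medium (3.38 ± 0.55, adjusted p = 9.5e-08). It passed the filter through the DoxRA libraries alone, and a gene so low in control medium could be tested only if it rose. Such passage was not examined for Ldhc and Pdha2, so these counts say nothing about the list as a whole.

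Markers of other cells were read beside these results. Of 20 feeder and stroma markers 7 were tested with Dox at day 9; 2 fell, Sparc and Timp1, and none rose. Their summed level was 508 to 568 RPM with Dox against 658 to 759 RPM in control medium, with Lum at 0 in both. With DoxRA the sum was 419 to 1089 RPM. In OESko_A11 it was 942 to 1185 RPM with DoxRA against 928 to 972 RPM. Of 10 markers tested there, Col5a2, Col1a2 and Loxl1 rose and Timp1 fell, where 13.5% of all genes were higher and 6.56% lower. The median log2 difference of the 10 was 1.66, and that of all genes was 0.21. In the Zko clones the summed level was 801 to 1253 RPM with B2RA against 1401 to 1554 RPM. Of the 9 germ cell markers tested with Dox, Ddx4 and Dazl rose and Tfap2c, Dppa3, Pou5f1 and Dnd1 fell. The part of these cells in the glycolysis differences was not tested.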

How the data were processed

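Libraries were amplified from the 3' ends of transcripts of 1 ng RNA, per the labels' protocols. The deposited values are RPM per gene, scaled by the authors to each library's total over endogenous genes. The submitters' processing notes name cutadapt 1.9.1, TopHat2 2.1.0, Bowtie 1.1.2, SAMtools 1.3, HTSeq 0.9.1 and mm10; their roles and the gene annotation are not given in the sources used here. Columns in which the transgene rows lift the total are on the same scale and were handled as signal values, as deposited by the authors. The authors' RPM were whole multiples of 1 read in 100.0% of the low values of each library (tolerance 0.05 reads), and reads were recovered on that basis. Higher values were not checked in this way. Of 195 value columns 194 matched a label, 1 was not used, and 2 of the 196 labelled samples are not analysed here; 3 shifted lines were realigned. The 25706 endogenous genes were used, without 3 transgene rows.

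Values were taken as log2(RPM + 1) and fitted across 12174 genes and all cultured groups in 1 model (limma 3.58.1, R 4.3.3), with Benjamini-Hochberg adjusted p over all genes tested in a comparison. Genes reaching 10 RPM in at least 2 libraries of a comparison were tested; those with adjusted p under 0.05 and an absolute log2 difference of at least 1 were called. Alternatives were a pseudocount of 0.5 or 5, no filter, TMM scaling, a model of the compared groups alone, a replicate block, each library left out, and edgeR 4.0.16 on the recovered reads of 58 libraries in 29 groups. The fit was tested on simulated data. All members are named; of other lists, at most 4 called genes at 20 RPM or more with the largest change with Dox or DoxRA were eligible, and genes named beyond these were chosen after their values were seen. The members and lists were chosen with earlier results of these data known.

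Unique counting can split reads of genes with near-identical copies; several members, among them Gapdh, Pgk1, Pgam1 and Ldha, have processed pseudogenes, so their absolute levels are uncertain. Strand use in counting is not given in the sources used here.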

Additional observations from a re-analysis of the deposited data

Results flagged for a closer look

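A difference between 2 groups' responses to the same contrast, tested as an interaction in the limma model, drew attention to 15 values. All are on the log2 scale. The OESko_A11 minus OE_A2 difference in the DoxRA response was 3.0 for Slc2a3, 3.42 for Hk2, 2.82 for Pfkp, 2.01 for Gapdh, 2.52 for Ldhb and 3.35 for Pfkfb3, each called in all 15 alternatives run. For Aldoa it was 1.85, called in 10 of 15. Stra8 status and clone cannot be told apart here.

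The Dox response in BMS minus that in control medium was 1.36 for Gapdh, called in 7 of 15 alternatives, 1.7 for Pgam1, called in 7 of 15, and 3.94 for Ldha, called in 6 of 15. The Ldha difference ranged between 2.77 and 5.12 over them, with adjusted p between 0.015 and 0.31.

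The B2RA response of the Sko clones minus that of the Zko clones was -1.45 for Hk1, -1.73 for Hk2 and -1.61 for Eno1, each called in all 23 alternatives run. It was -1.03 for Pgam1, called in 17 of 23, and 1.19 for Eno3, called in 16 of 23. Genotype and clone cannot be told apart here.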

How the results depend on the processing

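Counts of members called kept within 1.5 times the reported count in 27 of 27 comparisons with a pseudocount of 0.5 and with the replicate block. The labels do not say what a replicate number marks, and the correlation of same-numbered deviations ran between -0.161 and 0.275 and was not over 0.1 in every pair, so the numbers were not taken to pair libraries; the block lost 0 of 294 member calls. No called member changed sign with another pseudocount, filter, scaling, model or tool, with the block, or with 1 library left out.

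Another day as the reference turned 27 called values round. Against untreated cells of day 3, with Dox at day 4 Eno1 was at -1.64, Ldha at -0.36 and Pgk1 at -0.21, and with DoxRA Eno1 was at -1.51 and Ldha at -1.41; both Eno1 values were called. Against controls of day 4, at day 9 with BMSDox Ldha was at 2.08, Aldoc at 1.59, Slc16a3 at 1.35, Tpi1 at 0.90, Gpi1 at 0.73, Aldoa at 0.60, Slc2a1 at 0.31, Pfkl at 0.20, Pkm at 0.17 and Pgk1 at 0.030, of which Ldha was called. In the Sko clones Slc16a3 was at 3.44, Aldoc at 1.88, Tpi1 at 0.92, Hk2 at 0.79, Pfkl at 0.73, Aldoa at 0.38, Pgk1 at 0.27 and Slc2a1 at 0.083, of which Slc16a3 and Aldoc were called. In OESko_A11 Ldha was at 0.62 and Hk2 at 0.21, with SerumMinusWINDox Ldha was at 0.26, and in the Zko clones Aldoc was at 0.32.

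Without the filter the count was 8 for DoxRA against Dox, 1 for Zko BMP2 against control, and 6 for the Dox response in BMS minus that in control medium. That last count was 5 with a pseudocount of 5, 0 with TMM scaling and 1 with edgeR. TMM scaling gave 5 for Zko B2RA against control, and TMM and edgeR each gave 5 for H18 BMP2 over time. BMS against control gave 1 with a pseudocount of 5 and 0 in a model of these groups alone. Controls of day 4, a reference chosen after seeing the data, gave 10 lower with SerumMinusWINDox, 1 with BMSDox, 12 in OESko_A11 and 5 in the Sko clones. Untreated cells of day 3 gave, for Dox, 2 lower at day 4 and 10 at day 5, and 0 higher at day 4; for DoxRA they gave 3 lower at day 4 and 16 at day 5. A rule of at most 50% of the control gave 3 members by day 5 with SerumMinusWINDox and 4 with BMSDox. Apart from fewer genes or libraries entering a test, the cause was not tested.

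With 1 library left out in turn, the counts lower ranged over 13 to 19 for Dox, 14 to 22 for DoxRA, 4 to 5 for DoxRA against Dox, 13 to 19 for SerumMinusWINDox, 9 to 19 for BMSDox, 15 to 18 for OESko_A11 and 12 to 19 for Sko B2RA. They ranged over 0 to 1 for Zko BMP2, 2 to 5 for Zko B2RA, 3 to 5 for Zko B2RA against BMP2, 2 to 9 for H18 B2RA against BMP2 and 0 to 5 for H18 BMP2 over time. Counts higher ranged over 9 to 17 for Zko against H18 under BMP2, 0 to 2 for BMS, 3 to 9 for OESko_A11 control over time and 5 to 9 for Zko control over time. For the differences of responses they ranged over 6 to 9 for OESko_A11 minus OE_A2, 0 to 5 for BMS, 0 to 1 for SerumMinusWIN and 3 to 7 for Sko minus Zko. The lone library of a group left with 1 is then assumed to vary like the other groups.

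Depth limits the genes near 0: 1 read is worth up to 1.14 RPM, so low members such as Hk2 and Slc16a3 in induced cells rest on a few reads, and reads without molecular identifiers give counting error only.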

Other observations

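Slc16a1 differed widely between libraries of 1 group in some groups. It stood at 44.2 and 3.77 RPM in H18 control at day 3.5, 50.2 and 8.88 RPM in H18 BMP2 at day 3.5, 27.0 and 3.88 RPM in H18 RA at day 3.5, 66.4 and 6.34 RPM in H18 B2RA at day 7 and 44.2 and 0.710 RPM in Zko_E5 control at day 4.

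The row of the transgene with IRES-mCherry held 217 RPM in the E14.5 and 231 RPM in the E15.5 oocyte library and 0 at E9.5; these embryos carry no such transgene by their labels, and the oocyte crosses carry Ddx4-RFP.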
